A study of Homo sapiens with 6 samples.

Results

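The 47 genes described here encode the machinery that copies DNA and the enzymes that supply it with deoxynucleotides. They were given as a list, sorted into 5 groups by the complex their proteins work in: licensing (9 genes), helicase (14), polymerase (9), clamp, clamp loader and single-strand binding (11), and nucleotide supply (4). All 47 were among the 23285 genes of the deposited tables, and all 47 had enough counts to be tested. The cells were PC3, a prostate cancer line from a bone metastasis. Control cells (3 libraries) received non-specific siRNA and treated cells (3 libraries) received paxillin siRNA, and both were harvested 72 h after transfection. *PXN* encodes paxillin, a scaffold protein that sits at the sites where integrins attach cells to the matrix. Both groups carry replicate numbers 1 to 3, but the labels do not name separate cultures. P-values thus measure the spread between these libraries, which may be technical. All cells were of 1 line, and the labels give neither the number nor the sequences of the siRNAs.

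DNA replication is prepared in G1, when the origin recognition complex (ORC), CDC6 and CDT1 load the ring of MCM2 to MCM7 onto origins, a step called licensing. In S phase the kinase CDC7 and its partners turn the loaded ring into the active helicase by adding CDC45 and the GINS complex. DNA polymerase alpha with primase then starts each strand, RFC loads the sliding clamp PCNA, and polymerases delta and epsilon extend. Ribonucleotide reductase, thymidylate synthase and thymidine kinase 1 provide the building blocks. Many of these genes are textbook targets of E2F transcription factors and are transcribed around the entry into S phase.

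Each library held 25252317 to 30394729 estimated counts, which correspond to 22209770 to 33627630 single reads. In both groups replicate 3 held the most estimated counts and the fewest single reads. Levels are given as CPM, counts scaled to the size and composition of the library, in the order of replicates 1, 2 and 3. *PXN*, the target of the siRNA, was at 835, 854 and 718 CPM with non-specific siRNA and at 59.2, 55.7 and 91.7 CPM with paxillin siRNA. It fell by 3.54 ± 0.23 (SE) on the log2 scale (edgeR adjusted p = 0.00613), which missed the threshold of 0.05 without control replicate 1 (0.0819) or 2 (0.0762), leaving 7.09%, 6.52% and 12.8% in the pairs of equal replicate number. The 7 markers checked for PC3 were keratins and *EPCAM*, which are epithelial, and *VIM* and *CD44*, which are not specific to epithelium. They summed to 2382 to 2491 CPM in control and 1844 to 2246 CPM in paxillin siRNA libraries. *KLK3* and *KLK2*, markers of hormone-responsive prostate cells, stayed below 0.5 CPM in every library. The leukocyte markers *PTPRC* and *CD3E*, the endothelial markers *CDH5* and *TEK* and the fibroblast marker *DCN* were also below 0.5 CPM. The summed marker lists, which include genes that are not specific to their cell type, were 43.1 to 63.6 CPM in controls against 74.9 to 86.8 CPM with paxillin siRNA for 5 genes of hormone-responsive prostate cells, 35.1 to 49.96 against 55.7 to 88.2 CPM for 5 leukocyte genes, 58.9 to 128 against 65.6 to 129 CPM for 6 fibroblast genes and 78.1 to 115 against 136 to 149 CPM for 5 endothelial genes. The hormone-responsive, leukocyte and endothelial sums were thus higher with paxillin siRNA without overlap. The highest value of a single gene in these 3 lists was 82.5, 86.7 and 146 CPM. Sums of that size thus came almost wholly from 1 gene per list and do not show that a list rose as a whole. The part of these genes in the results below was not tested.

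The promoters of these genes were searched for short sequences of the type that E2F factors bind. In RefSeq promoter windows of 300 bases (250 before to 50 after the start, assembly GRCh38.p14, which is another build than the hg19 of the deposited tables), 41 of the 47 genes had an entry. Searched on both strands, an E2F-type stretch, which is the motif TTCCCGC, the variant motif TTGGCGC or else the variant motif TTCGCGC, lay in 28 of these 41 windows (68.3%), against 11.03% of all 35116 promoters and 17.2% of the 10700 tested genes with an entry. The windows below show the 250 bases before the start, 5′ to 3′ on the strand of the gene, with every E2F-type stretch in capitals. They are the gene with the largest fold change (*TYMS*), the GINS and ORC subunits that differed most between the groups (*GINS2*, *ORC1*), an MCM subunit with separate stretches (*MCM6*), and *TK1*, which has none in this window. Their positions are chr18:657403-657652 on the plus strand for *TYMS*, and on the minus strand chr16:85688955-85689204 for *GINS2*, chr1:52404424-52404673 for *ORC1*, chr2:135876444-135876693 for *MCM6* and chr17:78187205-78187454 for *TK1*.
TYMS: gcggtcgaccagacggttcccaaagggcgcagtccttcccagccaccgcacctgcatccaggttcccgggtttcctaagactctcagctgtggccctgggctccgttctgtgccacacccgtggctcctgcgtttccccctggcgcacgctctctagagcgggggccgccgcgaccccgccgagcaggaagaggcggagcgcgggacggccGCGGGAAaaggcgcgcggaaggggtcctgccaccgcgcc
GINS2: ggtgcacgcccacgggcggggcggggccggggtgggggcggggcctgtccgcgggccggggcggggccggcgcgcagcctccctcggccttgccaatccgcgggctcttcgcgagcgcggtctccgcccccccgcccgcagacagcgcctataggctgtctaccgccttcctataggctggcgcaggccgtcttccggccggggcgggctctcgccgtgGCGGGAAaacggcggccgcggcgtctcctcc
ORC1: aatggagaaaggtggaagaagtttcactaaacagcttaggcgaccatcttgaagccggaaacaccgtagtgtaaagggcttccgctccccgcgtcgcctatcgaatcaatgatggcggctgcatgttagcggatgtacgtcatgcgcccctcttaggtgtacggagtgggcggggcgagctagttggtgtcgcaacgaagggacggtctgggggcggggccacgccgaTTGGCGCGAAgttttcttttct
MCM6: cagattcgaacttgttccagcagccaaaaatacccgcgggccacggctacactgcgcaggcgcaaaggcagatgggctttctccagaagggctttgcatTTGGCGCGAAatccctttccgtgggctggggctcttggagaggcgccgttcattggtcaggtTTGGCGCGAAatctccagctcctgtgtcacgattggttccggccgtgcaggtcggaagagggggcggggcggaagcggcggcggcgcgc
TK1: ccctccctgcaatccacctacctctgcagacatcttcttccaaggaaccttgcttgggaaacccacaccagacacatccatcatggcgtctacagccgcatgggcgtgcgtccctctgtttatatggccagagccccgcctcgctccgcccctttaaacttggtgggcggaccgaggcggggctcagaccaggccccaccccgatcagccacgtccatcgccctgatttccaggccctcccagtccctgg
The stretch begins 39 bases before the start in *TYMS* and 31 in *GINS2*. In *ORC1* 2 matches, beginning 22 and 19 bases before the start, overlap each other and a CCAAT on the minus strand. In *MCM6* the 4 matches form 2 stretches, because on each occasion a match on one strand overlaps a match on the other. A match is a description of letters, and no match says nothing about whether a factor binds.

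The 28 members with an E2F-type stretch had a median log2 fold change of −0.72 and the 13 without one −0.52, against −0.07 and −0.00 for all tested genes with and without it. Those without a stretch included both genes whose levels barely moved (*ORC2*, *ORC4*, *ORC5*) and genes with large differences (*TK1*, *RRM2*, *CDC45*, *MCM10*, *FEN1*). By complex, the stretch was in 4 of 9 licensing, 9 of 11 helicase, 5 of 8 polymerase, 8 of 9 clamp and 2 of 4 nucleotide genes with an entry. The NF-Y type CCAAT was in 56.1% of members, 34.6% of all promoters and 36.6% of tested genes with an entry. The CHR element TTTGAA, known from promoters of mitotic genes, was in 1 member (*RRM1*, 2.44%). It was in 15.2% of all promoters and 9.98% of tested genes with an entry. Members and tested genes entered with 1 window per gene, while all promoters were counted as listed.

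With paxillin siRNA most replication genes were at lower levels: the summed level of the 47 was 1550.5, 2445 and 1637 CPM in the controls and 1062, 1025 and 1397 CPM in the paxillin siRNA libraries. In bulk samples, fewer cells in S phase and less of each transcript per cell cannot be told apart. The fitted log2 fold change was below 0 for 44 of 47 members, with a median of −0.71 against 0.0018 over all 15876 genes tested, and 13 members were at −1 or lower. *TYMS* was lowest at −1.98, and *ORC3*, *ORC4* and *ORC5*, subunits of the origin recognition complex, were the 3 above 0, by at most 0.06, and the signs of *ORC4* and *ORC5* changed between fits. All 3 paxillin siRNA libraries lay below all 3 controls for 25 members, and no member had them all above. Of all tested genes 14.7% were lower and 13.6% higher in this way.

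In edgeR's quasi-likelihood test with Benjamini-Hochberg adjustment over all genes, no member passed an adjusted p of 0.05, whereas 0.302% of genes tested were called lower and 0.882% higher. The lowest adjusted p among the members was 0.0586 (*TK1*), and 30 of the 47 were lower at an unadjusted p under 0.05, against 11.1% of genes, and 0 were higher, against 11.3%. With the replicate number as a block, which compares libraries of equal number, 27 members fell and none rose, where 10.7% of all genes tested were called lower and 11.7% higher. DESeq2, without the block, called 19 members lower against 5.06% of genes, and none higher, against 4.8%. All 19 were among the 27. Limma on log2(FPKM + 1) called 0 of the 41 members it tested, where 0.0884% of genes were lower, with 24 members and 17.4% of genes lower at an unadjusted p under 0.05.

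**Figure D1:**
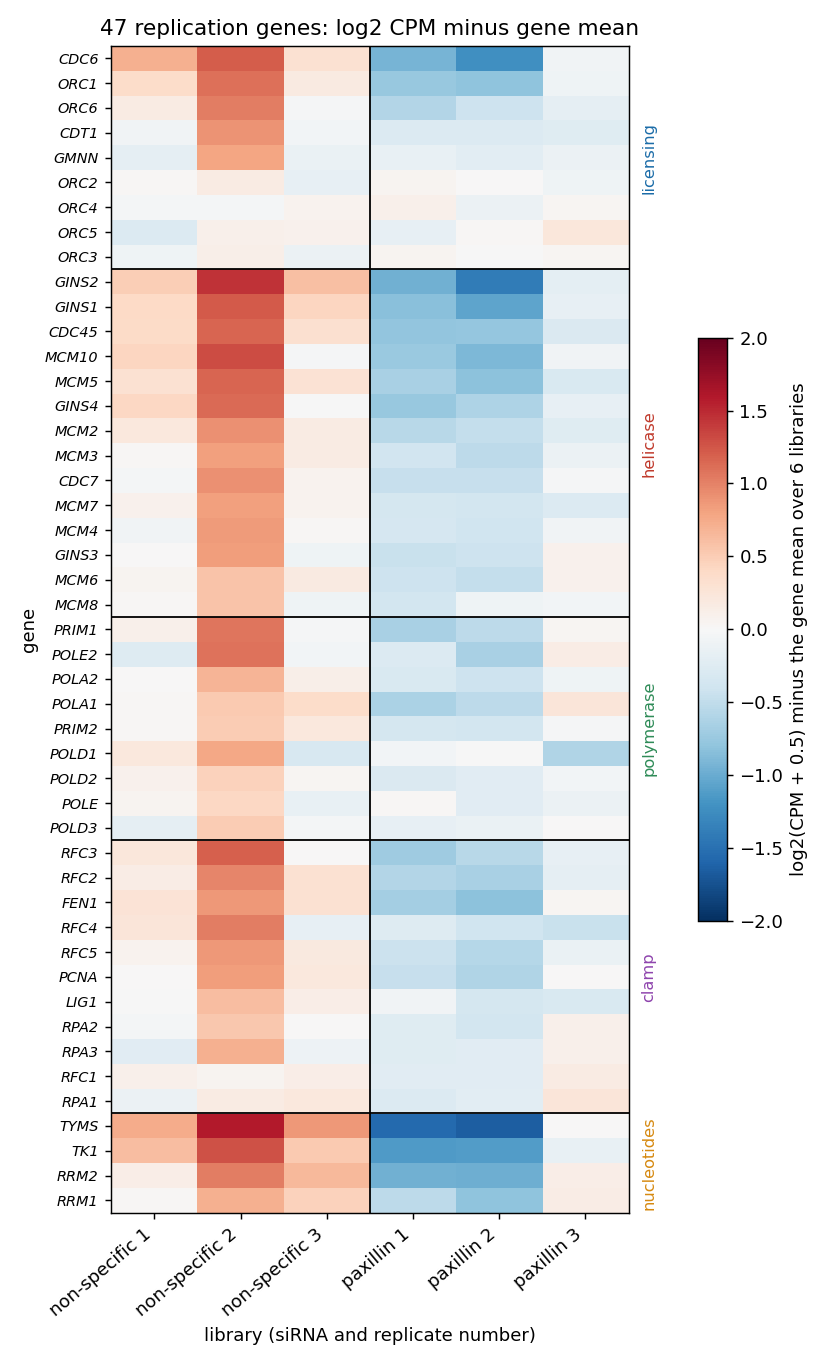
Heat map of the 47 genes (rows, grouped by complex) in the 6 libraries (columns), as log2(CPM + 0.5) minus the mean of the gene over the libraries. Non-specific siRNA replicate 2 is the highest library for 43 of the 47 genes, and paxillin siRNA replicates 1 and 2 are the lowest in 41.

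The size of the difference depended on the pair. The median log2 ratio of the 47 members was −0.47 in pair 1, −1.36 in pair 2 and −0.18 in pair 3, and 41, 47 and 33 members respectively were lower with paxillin siRNA. In all 3 pairs 32 members were lower and none was higher, where 28.7% of all genes tested were lower and 29.2% higher in all 3. The lowest ratio was in pair 2 for 46 members, and the highest, which includes ratios above 0, in pair 3 for 43. Among all 15876 genes tested these counts were 5739 and 5994. In pair 2 the control library was high, and in pair 3 the treated library was high. Non-specific siRNA replicate 2 was above the mean of the other 2 controls by a median factor of 1.66 (range 0.958 to 2.55), against 1.01 over all genes. Paxillin siRNA replicate 3 was above the mean of the other 2 by a median factor of 1.32 (0.665 to 3.13), against 1.01 over all genes. A median near 1 does not exclude differences in both directions. By correlation of log2 CPM, the library nearest to treated replicate 3 was control replicate 3 (0.9857). Its correlation was lower to treated replicate 1 (0.9731) and to treated replicate 2 (0.9712). Those 2 treated libraries were instead nearest to each other (0.9895). *PXN* itself was least reduced in pair 3, and whether this has a part in the smaller difference of that pair was not tested.

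Results therefore rest on which libraries were compared. The members' median log2 fold change was −0.41 when control replicate 2 was left out and −0.84 when treated replicate 3 was left out. In the latter case edgeR called 18 members lower with no block, against 7.88% of genes, and all 18 were among the 27 called with it. Leaving out any other single library gave 0 edgeR calls among the members. In those fits no gene was called lower without control replicate 1 or 2, and 0.0869%, 0.00623% and 0.00624% of genes were without control replicate 3 and treated replicates 1 and 2. At an unadjusted p under 0.05, 32, 19, 33, 20 and 19 members were lower in these 5 fits, against 8.35%, 9.02%, 8.64%, 5.6% and 6.06% of genes. When both libraries of a replicate number were left out of the blocked fit, 6 members were called without pair 1 (1.09% of genes), 10 without pair 2 (4.1%) and 36 without pair 3 (14.5%). *TYMS*, *TK1*, *RRM2*, *GINS1*, *GINS2* and *MCM5* were called lower in all 3 of these fits.

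**Figure D2:**
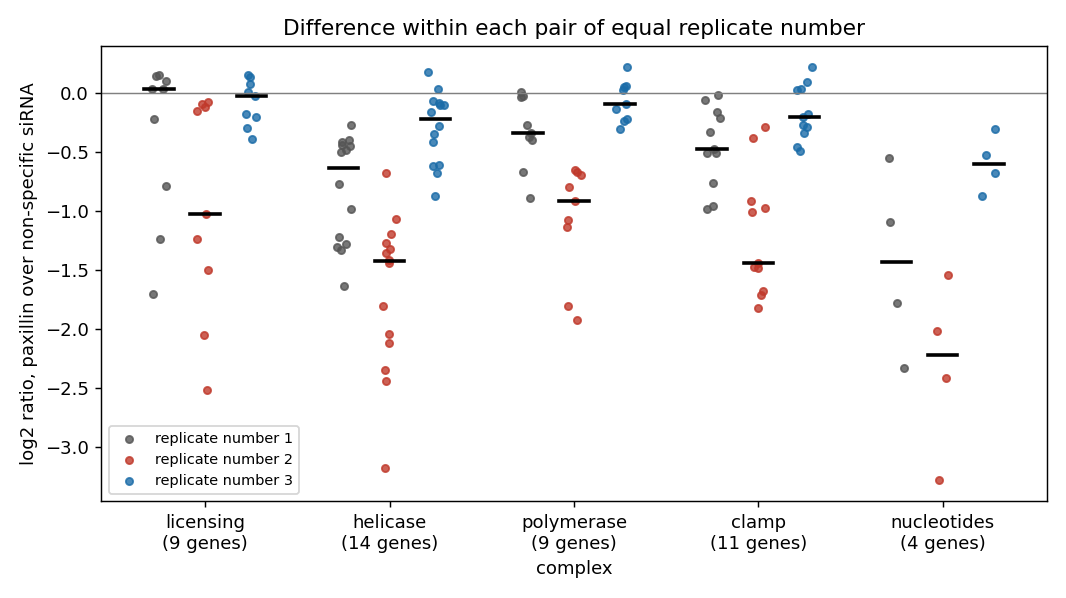
Log2 ratio of paxillin to non-specific siRNA by complex (x axis), with 1 point per gene. Within each complex the 3 pairs of equal replicate number stand side by side in separate colours, with a bar at each median. The medians are lowest in pair 2 in all 5 complexes, from −0.92 for polymerases to −2.22 for nucleotide supply, and lie between −0.60 and −0.02 in pair 3.

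Of the 9 licensing genes *CDC6*, *ORC1* and *ORC6* fell in the fit with the block, and the other 6 did not pass. The share of all genes tested called lower in that fit, for this and each other complex, was 10.7%. *CDC6* (chr17:38444146-38459413, hg19) encodes the ATPase that loads the MCM ring with ORC. It was at 25.5, 36.0 and 19.1 CPM in the controls and at 7.82, 6.30 and 14.6 CPM with paxillin siRNA, so the groups did not overlap and replicate 3 was the highest of the treated libraries. The log2 fold change was −1.49 ± 0.35 (adjusted p = 0.0774, with the replicate block 0.00405), and 30.7%, 17.5% and 76.5% of the level remained in pairs 1, 2 and 3. *ORC1*, the ORC subunit whose protein in human cells is regulated over the cycle, was at 8.36, 14.2 and 7.29 CPM against 3.55, 3.43 and 5.96 CPM. Again no treated library reached a control, with a log2 fold change of −1.20 ± 0.33 (adjusted p = 0.098, block 0.0101). *ORC6* followed at −0.89 (adjusted p = 0.137, block 0.0185).

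*ORC3*, a core subunit of ORC, was at 14.8, 17.1 and 14.6 CPM in controls and at 16.4, 15.7 and 16.3 CPM with paxillin siRNA, and the groups overlapped. Its log2 fold change of 0.06 ± 0.13 (adjusted p = 0.836) and those of *ORC2* (−0.02), *ORC4* (0.02) and *ORC5* (0.05) were all smaller than their errors. *GMNN* encodes geminin, which binds CDT1 and blocks relicensing. It was at 13.5, 26.9 and 14.0 CPM in controls and at 13.8, 13.2 and 14.1 CPM with paxillin siRNA, so that control replicate 2 alone stood above the rest. The log2 fold change was −0.40 ± 0.27 (adjusted p = 0.412, block 0.257). *CDT1*, the loading partner that geminin holds back, was at 6.54, 13.3 and 6.63 CPM against 5.61, 5.62 and 5.78 CPM, a log2 fold change of −0.64 (adjusted p = 0.246, block 0.0891) with no overlap. The median log2 fold change of the licensing genes was −0.40, or −0.0029 without non-specific siRNA replicate 2.

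The helicase group held the most calls: 10 of its 14 genes fell in the fit with the replicate block, with a median log2 fold change of −0.81, or −0.52 without control replicate 2. The GINS complex holds CDC45 and the MCM ring together in the moving helicase. *GINS2* (chr16:85711280-85722588, hg19), whose promoter is shown above, was at 7.33, 14.7 and 7.98 CPM in controls and at 2.36, 1.62 and 4.37 CPM with paxillin siRNA. No treated library reached a control, and 32.2%, 11.04% and 54.7% remained in the 3 pairs. The log2 fold change was −1.84 ± 0.42 (adjusted p = 0.072, block 0.00296). *GINS1*, its partner, was at 22.7, 40.7 and 23.3 CPM against 9.39, 8.001 and 15.2 CPM, with a log2 fold change of −1.41 ± 0.31 (adjusted p = 0.0701, block 0.0026). Again the groups did not overlap, and paxillin siRNA replicate 3 was the highest of its group. *GINS4* was at −1.12 (block 0.0101) and *GINS3* at −0.59 (block 0.128), so 3 of the 4 GINS genes fell with the block. *CDC45* was at 6.76, 11.98 and 6.46 CPM against 2.73, 2.76 and 4.04 CPM, a log2 fold change of −1.40 ± 0.30 (adjusted p = 0.0676, block 0.00319).

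The 6 genes of the MCM2 to MCM7 ring had a median log2 fold change of −0.71 (−0.42 without control replicate 2), and 5 of them fell with the block, the exception being *MCM4* (−0.60, adjusted p = 0.211, block 0.0571). *MCM7* (chr7:99690404-99723128, hg19) was at 107, 179 and 106 CPM in controls and at 78.4, 78.2 and 83.3 CPM with paxillin siRNA. The treated libraries lay close together and below all controls, with a log2 fold change of −0.71 ± 0.21 (adjusted p = 0.117, block 0.0122). The locus that the tables list for *MCM7* also holds other genes, among them *TAF6*, which was at −0.45 (adjusted p = 0.111, block 0.0216). The counting is not stated to use strand, so reads of overlapping genes cannot be told apart. The same limit may hold for *ORC4*, *POLA1*, *PCNA*, *RFC4*, *RPA3* and *TYMS*, which with *MCM7* make 7 members at loci listed for other genes. A shared listed locus does not by itself show that the transcripts overlap. *MCM5* had the lowest log2 fold change of the ring, −1.26 ± 0.28 (adjusted p = 0.0686, block 0.00297).

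Per transcript length, the ring's subunits were not at equal levels. In FPKM, which adjusts for transcript length and depth, the controls held 15.0 ± 4.98 (SD, n = 3) of *MCM7*, 9.67 of *MCM3*, 6.32 of *MCM4*, 4.10 of *MCM2*, 4.09 of *MCM5* and 3.68 of *MCM6*. With paxillin siRNA the values were 8.57 ± 0.675, 5.63, 3.99, 2.07, 1.62 and 2.45. The share of *MCM5* in the summed FPKM of the ring was 9.21%, 10.2% and 8.79% in controls and 6.64%, 5.91% and 7.20% with paxillin siRNA. These shares did not overlap between the groups. The same held for *MCM2*, at 9.57% ± 0.328 in controls and 8.52% ± 0.255 with paxillin siRNA, and in the other direction for *MCM4*, at 14.6% ± 0.647 and 16.4% ± 0.144 (SD, n = 3 each). The shares of *MCM3*, *MCM6* and *MCM7* overlapped, with 34.9% ± 0.75 and 35.5% ± 2.23 for *MCM7* (SD, n = 3 each). No test was run on the shares.

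Of the helicase group's other members, *MCM10*, which helps to start the helicase, was at −1.34 ± 0.41 (adjusted p = 0.121, block 0.0209). *MCM8*, a relative of the ring that works in recombination repair, was at 25.9, 38.3 and 23.9 CPM against 19.7, 24.0 and 24.5 CPM. Its groups overlapped, and its log2 fold change of −0.37 ± 0.20 was the smallest in size of the group (adjusted p = 0.319, block 0.113). *CDC7*, the kinase that activates the loaded ring, was at −0.71 (adjusted p = 0.202, block 0.0538).

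**Figure D3:**
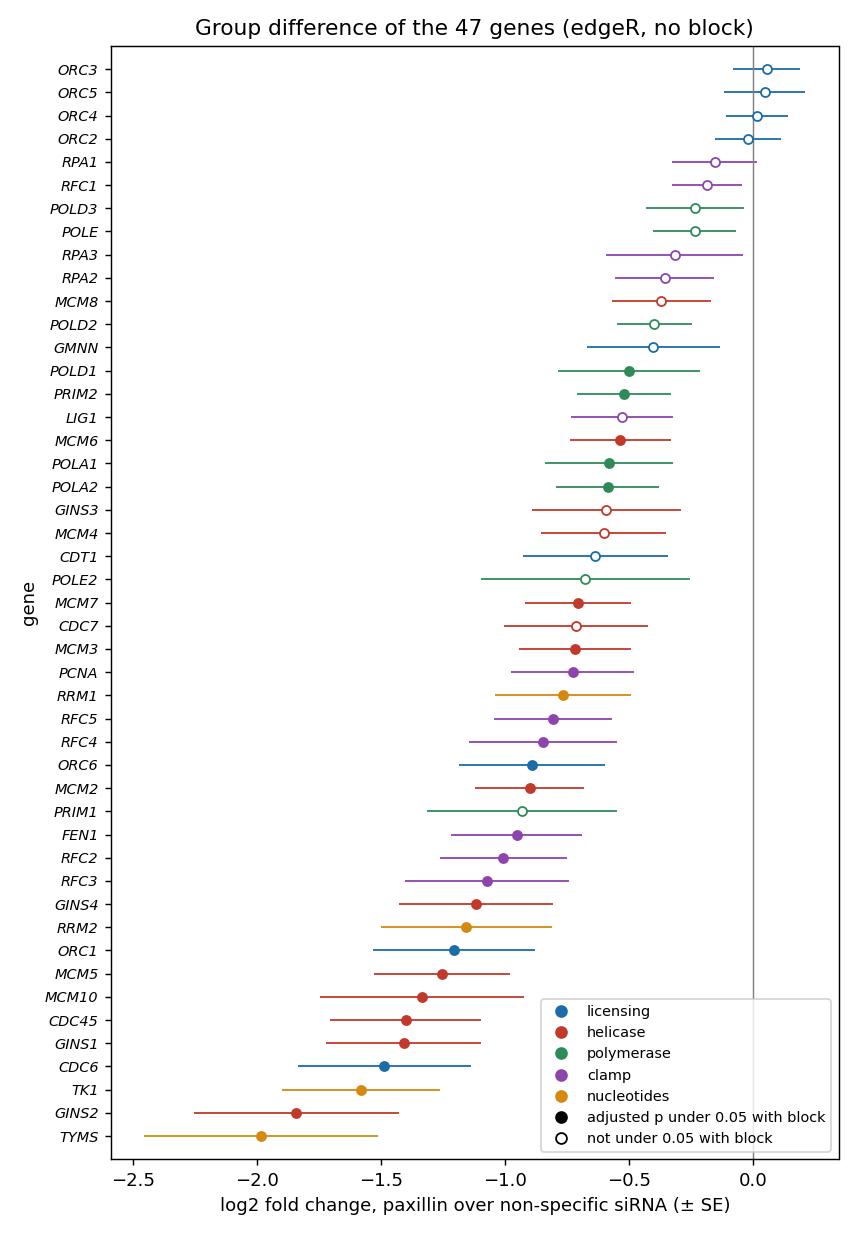
Log2 fold change (paxillin minus non-specific siRNA) with its SE for each of the 47 genes, sorted by fold change and coloured by complex, from the fit without the block. Filled points mark the 27 genes with an adjusted p under 0.05 with the replicate block, and they reach from −1.98 for *TYMS* to −0.50 for *POLD1*.

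Polymerase genes had a median log2 fold change of −0.52, or −0.25 without control replicate 2. With the block 4 of 9 were called lower: *POLA1* (−0.58), *POLA2* (−0.59), *PRIM2* (−0.52) and *POLD1* (−0.50). Without the block their edgeR adjusted p was 0.232, 0.159, 0.164 and 0.339, and the groups overlapped for *POLA1* and *POLD1*. DESeq2 called 0 polymerase genes lower, against 5.06% of genes. The blocked fits without replicate 1 or 2 of both groups also called 0, against 1.09% and 4.1% of genes. *POLA1*, *POLA2* and *PRIM2* belong to the polymerase alpha and primase complex, which lays down the RNA and DNA primer. *POLD1* is the catalytic subunit of polymerase delta. *PRIM1*, the catalytic primase subunit, was at 3.52, 7.37 and 3.21 CPM in controls and at 1.91, 2.11 and 3.36 CPM with paxillin siRNA. The treated library of pair 3 was level with its control (105% remained), and the log2 fold change was −0.93 ± 0.38 (adjusted p = 0.206, block 0.0547). *POLE2*, an accessory subunit of the leading-strand polymerase epsilon, was at 3.45, 9.58 and 4.08 CPM against 3.40, 2.53 and 4.77 CPM. Control replicate 2 alone stood apart here, and the log2 fold change was −0.68 ± 0.42 (adjusted p = 0.38, block 0.256).

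*POLD2*, the delta subunit with the highest FPKM of the group (19.2 in controls and 13.8 with paxillin siRNA), was at 84.9, 110 and 82.4 CPM against 65.6, 68.1 and 77.1 CPM. The groups did not overlap, but the log2 fold change of −0.40 ± 0.15 did not pass in either fit (adjusted p = 0.178, block 0.0557). *POLD3*, another delta subunit, was at 21.5, 35.0 and 23.7 CPM against 21.7, 22.1 and 24.6 CPM, with overlapping groups and a log2 fold change of −0.23 ± 0.20 (adjusted p = 0.514). *POLE*, which encodes the catalytic epsilon subunit, was also at −0.23 (adjusted p = 0.439).

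Within the clamp group 6 of 11 genes fell with the block: the clamp, 4 of the 5 loader subunits and *FEN1*. The group's median log2 fold change was −0.73, or −0.43 without control replicate 2. *PCNA*, the sliding clamp itself, was at 63.1, 112 and 72.2 CPM in controls and at 45.5, 41.3 and 62.7 CPM with paxillin siRNA. The highest treated library was just below the lowest control, and the log2 fold change was −0.73 ± 0.25 (adjusted p = 0.144, block 0.0219). The antisense gene at the same locus, *PCNA-AS1*, was at −1.05 (adjusted p = 0.0676, block 0.00339), and without strand their reads cannot be told apart. *RFC3*, a clamp loader subunit, was at 14.4, 28.7 and 12.3 CPM against 7.29, 8.15 and 10.9 CPM, with a log2 fold change of −1.07 ± 0.33 (adjusted p = 0.121, block 0.0133). *RFC2*, another small subunit of the loader, was at 17.3, 31.3 and 19.4 CPM against 10.2, 9.78 and 13.8 CPM, with a log2 fold change of −1.01 ± 0.26 (adjusted p = 0.0889, block 0.00571). For both, every treated library was below every control. *RFC4* (−0.85) and *RFC5* (−0.81) also fell with the block, while *RFC1*, the large subunit, was at −0.19 (block 0.273).

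The 3 subunits of RPA, which coats single-stranded DNA, had a median log2 fold change of −0.31, or −0.12 without control replicate 2, and none passed in either fit. *RPA1* was at 72.8, 88.4 and 91.2 CPM in controls and at 65.4, 68.1 and 93.3 CPM with paxillin siRNA. The groups overlapped, since treated replicate 3 was the highest of the 6 libraries, and the log2 fold change was −0.15 ± 0.17 (adjusted p = 0.631). Of the enzymes that finish Okazaki fragments, the flap nuclease *FEN1* was at 70.1, 106 and 72.0 CPM against 36.1, 32.5 and 59.8 CPM, with no overlap and an adjusted p of 0.102 (block 0.00693). The ligase *LIG1* was at −0.53 (adjusted p = 0.187, block 0.0691).

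The 4 nucleotide supply genes had the lowest median of the 5 groups, −1.37, and all 4 fell with the block. *TYMS*, thymidylate synthase, makes dTMP from dUMP and is the target of fluorouracil. It was at 73.5, 132 and 80.6 CPM in controls and at 14.6, 13.6 and 44.1 CPM with paxillin siRNA. All treated libraries were below all controls, and 19.9%, 10.3% and 54.7% remained in the 3 pairs. The log2 fold change was −1.98 ± 0.47 (adjusted p = 0.0797, block 0.00113). The tables list *TYMS* at a locus that also holds *ENOSF1*, *C18orf56* and *CLUL1* (chr18:596998-712662, hg19). *ENOSF1* overlaps *TYMS* on the opposite strand. *ENOSF1* was at 51.4 ± 6.92 CPM in controls and at 39.9 ± 2.15 CPM (SD, n = 3 each) with paxillin siRNA, a log2 fold change of −0.36 (adjusted p = 0.171, block 0.0506). *C18orf56* was at 3.69 ± 0.653 against 1.72 ± 0.415 CPM (SD, n = 3 each), a log2 fold change of −1.09 (adjusted p = 0.0829, block 0.00811). *CLUL1* was at 0.36 (adjusted p = 0.72, block 0.369).

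*TK1* (chr17:76170160-76183285, hg19), cytosolic thymidine kinase, makes dTMP from thymidine and so serves the same product by the salvage route. It was at 84.0, 131 and 78.2 CPM against 24.5, 24.6 and 48.8 CPM, again with no overlap. The log2 fold change was −1.58 ± 0.32 (adjusted p = 0.0586, block 0.00108). It passed without the block when no filter on low counts was used (adjusted p = 0.0411), the 1 member called there, where 0.416% of genes were called lower. Its FPKM in controls was the highest of the 47 genes (23.9 ± 7.64, SD, n = 3), against 7.55 ± 3.63 with paxillin siRNA.

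Ribonucleotide reductase, which turns ribonucleotides into deoxynucleotides, is built from the large subunit *RRM1* and the small subunit *RRM2*. *RRM1* was at 68.7, 112 and 93.3 CPM in controls and at 46.9, 38.5 and 75.5 CPM with paxillin siRNA. Treated replicate 3 lay above control replicate 1, so the groups overlapped although every pair was lower (68.2%, 34.5% and 80.9% remained), with a log2 fold change of −0.77 ± 0.27 (adjusted p = 0.16, block 0.013). *RRM2* was at 76.1, 142 and 110 CPM against 35.8, 35.1 and 76.4 CPM, with a log2 fold change of −1.16 ± 0.35 (adjusted p = 0.116, block 0.00274). The FPKM ratio of *RRM2* to *RRM1* was 1.21, 1.37 and 1.29 in controls and 0.809, 0.994 and 1.10 with paxillin siRNA, without overlap and without a test. *RRM2B*, the p53-inducible small subunit, which is no member of the list, was at 83.0 ± 8.91 against 88.9 ± 10.1 CPM (SD, n = 3 each), a log2 fold change of 0.10 (adjusted p = 0.706).

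**Figure D4:**
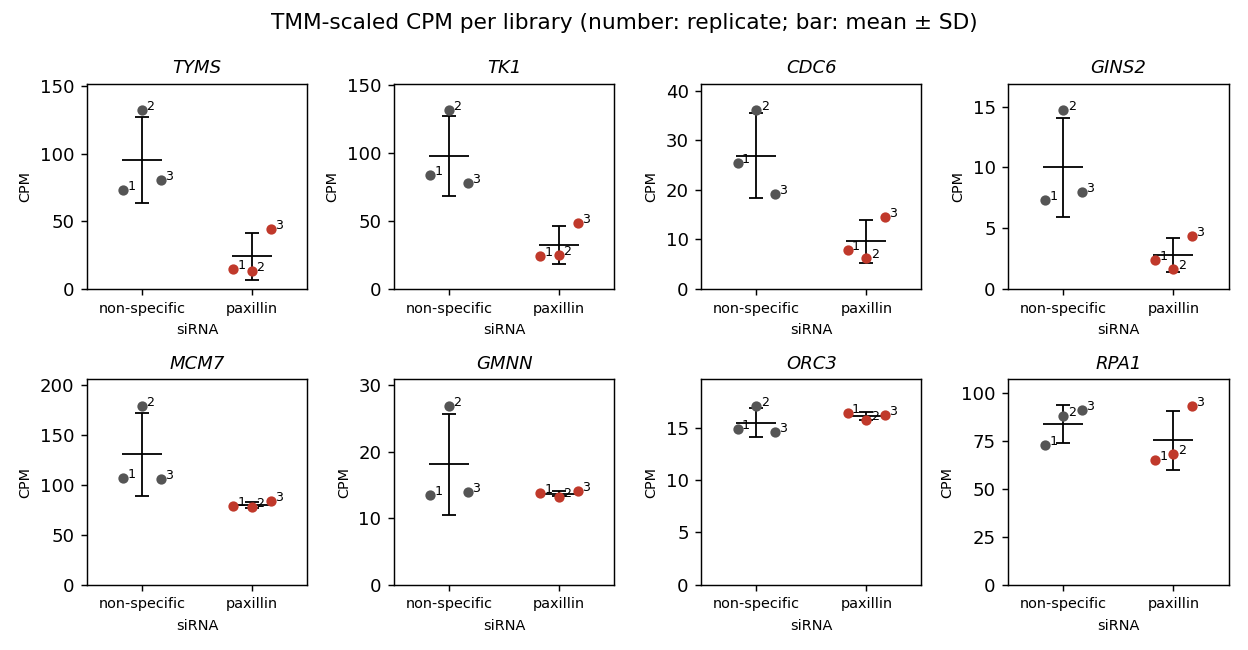
CPM of 8 genes in each library (points, 1 per library, labelled by replicate number), with a wide line at each group's mean and error bars of 1 SD. *TYMS*, *TK1*, *CDC6*, *GINS2* and *MCM7* have no overlap between groups, while *GMNN*, *ORC3* and *RPA1* do.

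Beyond the 47, 65 further genes of fork function and nucleotide metabolism were all tested. Without the block edgeR called 0 of them, where 0.302% of genes tested were called lower and 0.882% higher. At an unadjusted p under 0.05, 29 were lower and 1 higher, against 11.1% and 11.3% of genes. With the block 29 fell and 1 rose, against 10.7% lower and 11.7% higher among all genes tested. DESeq2 called 18 lower and 1 higher, against 5.06% and 4.8% of genes. Their median log2 fold change was −0.34, or −0.22 without control replicate 2. Of 21 firing and fork factors 8 fell with the block, led by *TOP2A*, the topoisomerase that untangles sister chromatids, at 96.0, 132 and 105 CPM against 20.6, 18.1 and 59.2 CPM (log2 fold change −1.77 ± 0.43, adjusted p = 0.0843, block 0.000834). *CLSPN*, claspin, which links the fork to the checkpoint, was next at −1.11 (block 0.0259), and *MCM9*, the partner of MCM8, was the highest at 0.21 (adjusted p = 0.503).

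Of 12 genes that modify the clamp or assemble chromatin behind it, 9 fell with the block. In that fit 10.7% of all genes tested were called lower and 11.7% higher. The lowest were *KIAA0101*, which encodes a PCNA-binding factor (−1.69, block 0.00282), and *DTL*, which targets CDT1 for degradation at PCNA (−1.44, block 0.00745). *CHTF18*, part of an alternative clamp loader, was the highest at −0.08 (adjusted p = 0.936). Among 13 deoxynucleotide enzymes 6 fell and 1 rose with the block. *DTYMK*, thymidylate kinase, which acts on the product of both *TYMS* and *TK1*, was at 37.7, 52.0 and 35.7 CPM against 22.4, 21.6 and 26.7 CPM (−0.83 ± 0.18, adjusted p = 0.067, block 0.00377). *DUT*, which removes dUTP, was at −0.65 (block 0.0266). *SAMHD1*, which breaks down deoxynucleotides, was the gene that rose, from 59.4, 75.6 and 70.4 to 80.1, 126 and 127 CPM (0.70 ± 0.20, adjusted p = 0.106, block 0.0032), and its groups did not overlap.

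Of 19 genes of de novo purine and pyrimidine synthesis 6 fell with the block. The share of all genes tested called lower in that fit, here and for the lists that follow, was 10.7%. *PAICS*, a bifunctional enzyme of purine synthesis, was at 297, 351 and 358 CPM against 120, 127 and 221 CPM, a log2 fold change of −1.10 ± 0.25 (adjusted p = 0.0712, block 0.000645). *PRPS2*, a phosphoribosyl pyrophosphate synthetase, was at −0.90 (block 0.00332), and its relative *PRPS1* at 0.02 (adjusted p = 0.949). For comparison, 24 mitotic genes had a median log2 fold change of −1.13, or −0.87 without control replicate 2. With the block all 24 fell. Their pair medians of −1.47, −1.80 and −0.30 were also smallest in size in pair 3. Like the members and other lists, these genes were chosen with earlier results of these data known, so their count is a description. Among 13 genes of the E2F family and its partners the median was −0.15. It was −0.17 without control replicate 2, −0.38 without paxillin siRNA replicate 3 and 0.014 in pair 3 alone. With the block 4 fell: *E2F1* (−1.002, block 0.00813), *E2F2* (−1.47, block 0.00638), *E2F8* (−1.58, block 0.00536) and *RBL1*, a relative of the retinoblastoma gene (−0.63, block 0.0319). These 4 are named for their calls. No test of the difference between these lists was made.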

How the data were processed

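RNA of 6 PC3 samples was sequenced from Illumina TruSeq mRNA libraries, per the labels' protocols. The deposited tables hold the authors' estimated counts per gene and FPKM, per the file headers. FastQC 0.10.1, Cufflinks 2.0.2 and build hg19 are named in the submitters' processing notes. An aligner, an annotation and strand use are not given in the sources. Between 91.2% and 91.7% of count values above 0 were whole multiples, within 0.05, of the value of 1 read (0.825 to 1.37). A value of 0 allows up to 3 reads, 0.0892 to 0.135 CPM, counting error only.

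Rounded counts went into edgeR 4.0.16 (R 4.3.3, TMM, filterByExpr, quasi-likelihood, two-sided, Benjamini-Hochberg over 15876 genes). Each SE was derived from the fold change and its F statistic. Alternatives used the replicate block, RLE factors, DESeq2 1.42.0, no filter, reads, limma 3.58.1 on log2(FPKM + 1) or + 0.1 (mean FPKM of at least 1, or no filter), and each library left out. Fits that leave out a replicate number were added after seeing the data. Across genes, the deviations from the group mean of libraries with 1 number correlated at 0.34, 0.43 and 0.56, and others at −0.48 to 0.11, so the numbers were taken as pairs. The labels do not say what they stand for. Deviations from a group mean cancel within the group, so positive correlations for equal numbers bring negative ones elsewhere. The contrast is thus partly built in, and the pairs were read from the same libraries that the block compares. On simulated data, edgeR on 15716 genes recovered 68% of 2-fold and 98% of 4-fold changes with 8.29% of calls false, and with the block, on 15585 genes, 96%, 100% and 6.67%. Each fit was tried on data of its own model, with changes planted only in genes above a minimum average level. The shares recovered may thus not hold for members at low levels.

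Members and lists were chosen with earlier results of these data known. Values in every library are given for the 2 lowest and the highest log2 fold change and the highest FPKM of each complex, and for each list of further genes the 2 lowest and the highest are named. Other members were chosen for their role in the complex. *TICRR* was found under an older symbol. The marker lists were used without 2 genes that are not reported here.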

Additional observations from a re-analysis of the deposited data

How the results depend on the processing

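*PXN* missed the threshold without non-specific siRNA replicate 1 or 2 (adjusted p = 0.0819 and 0.0762; log2 fold changes ranged from −3.81 to −3.41 with 1 library left out) and with limma on FPKM without a filter (−3.46, adjusted p = 0.0634). Over all genes 188 were called, against 3561 with the replicate block, 1559 with DESeq2, 303 without the filter on low counts, 33 and 63 with limma on FPKM with pseudocounts of 1 and 0.1 and 0 without an FPKM filter, and 0 to 2440 with 1 library left out. Blocked fits without replicate 1, 2 or 3 of both groups called 455, 1336 and 4885. Of the 47 members 0 were called, against 27 with the replicate block, 19 with DESeq2, 1 without the filter, 0 to 18 with 1 library left out, and 6, 10 and 36 in the blocked fits without replicates 1, 2 and 3. Of the 65 further genes 0 were called, against 30 with the replicate block, 19 with DESeq2, 0 to 20 with 1 library left out, and 4, 9 and 38 in those blocked fits. The licensing median turned to 0.024 in the blocked fit without replicate 2.

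Signs changed for 7 members and 2 further genes, and none was called in a fit where its sign had changed. Of these genes only *POLE2* was called in another fit, at −0.99 (adjusted p = 0.0198) in the blocked fit without replicate 3. With 1 library left out the ranges were −0.095 to 0.059 for *ORC2*, −0.030 to 0.080 for *ORC4*, −0.077 to 0.14 for *ORC5*, −0.37 to 0.0078 for *POLD3*, −0.50 to 0.052 for *RPA3*, −0.44 to 0.33 for *CHTF18* and −0.085 to 0.21 for *PRPS1*. Limma on FPKM gave −0.018, −0.029 and −0.018 for *ORC4* and −0.011, −0.013 and −0.011 for *ORC5*. The blocked fit without replicate 2 gave 0.057 for *ORC2*, 0.024 for *GMNN*, 0.031 for *POLD3*, 0.11 for *POLE2*, 0.10 for *RPA3* and 0.18 for *CHTF18*. Without replicate 1 it gave −0.059 for *ORC4* and −0.032 for *PRPS1*, and without replicate 3 −0.048 for *PRPS1*. In limma with the FPKM filter, 6 members were not tested. The cause of these differences was not tested.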
